A study of Mus musculus with 4 samples.

Results

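The joins described here link a DNA break in the switch region Sμ of the immunoglobulin heavy chain locus (IgH) on chromosome 12 to a site on any other mouse chromosome. They were taken from the junction tables for preys outside IgH, where prey names the partner end of a join and bait names the Sμ end. All lines with a prey chromosome other than 12 were kept, and joins with the same chromosome, position and strand within a library were counted once. This gave 583 distinct joins from 599 lines, with 241 in the Wildtype library, 134 in CtIP_KO and 208 in XRCC4_KO, out of 15511 junctions in these 3 libraries. The table of the CtIP_AA library was not analysed here, and that library enters through its deposited summary and its tables of blunt joins and large insertions.

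All 4 libraries came from purified splenic B cells without CD43, taken from mice with preassembled IgH and IgK loci and grown for 4 days in medium that held 1 ng/mL of anti-CD40 and 20 ng/mL of IL-4. The genotypes were labelled CD21Cre+ CtIP +/C XRCC4 +/C for Wildtype, CtIP T855A/T855A for CtIP_AA, CD21Cre+ CtIP C/- XRCC4 +/C for CtIP_KO, and CD21Cre+ CtIP +/- XRCC4 C/- for XRCC4_KO. The Wildtype library therefore also carried the Cre and 1 C allele of each gene, and the XRCC4_KO library also lacked 1 CtIP allele. CD21Cre acts in mature B cells. Each genotype had 1 library, so every test below compares libraries, not genotypes, and intervals cover counting error only.

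In class switch recombination the enzyme AID deaminates cytosines in switch regions, and the resulting breaks are joined within IgH. AID also acts at other transcribed genes of activated B cells, and breaks there can join to IgH breaks as translocations. XRCC4 is a core factor of non-homologous end joining, which leaves blunt joins or joins with short shared sequence. CtIP starts the resection of DNA ends, which exposes sequence for joining through longer microhomology.

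The reads themselves show how such a join looks. The following reads were chosen as those with the longest overlap near each of 6 named loci (for Clec2d, among the 4 joins at the gene) and, for the last 3, in each whole library. Each runs from the Sμ bait on the left to the prey on the right, with up to 30 bases on each side of the join. The opening ccgtta of the Wildtype read on chromosome 3 comes before the bait. It opened 73 of 241 reads in Wildtype, 2 of 134 in CtIP_KO and 4 of 208 in XRCC4_KO. Capitals mark the overlap, the bases that fit both bait and prey. Prey positions are on mm9, and the strand is that of the prey.
Il4ra, XRCC4_KO, chr7:132695758-132695758, plus strand: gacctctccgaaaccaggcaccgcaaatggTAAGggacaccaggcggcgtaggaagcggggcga
Il21r, Wildtype, chr7:132745943-132745943, plus strand: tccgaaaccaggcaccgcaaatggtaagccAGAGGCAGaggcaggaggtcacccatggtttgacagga
Igk, Wildtype, chr6:70673414-70673414, plus strand: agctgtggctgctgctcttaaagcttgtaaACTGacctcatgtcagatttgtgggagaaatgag
Clec2d, Wildtype, chr6:129135009-129135009, minus strand: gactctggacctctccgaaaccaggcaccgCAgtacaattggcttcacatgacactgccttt
Cd83, XRCC4_KO, chr13:43880650-43880650, minus strand: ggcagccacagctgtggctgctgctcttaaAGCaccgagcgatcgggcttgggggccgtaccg
Pim1, XRCC4_KO, chr17:29628655-29628655, minus strand: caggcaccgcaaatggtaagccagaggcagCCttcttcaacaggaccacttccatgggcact
No named gene, Wildtype, chr3:145759578-145759578, plus strand: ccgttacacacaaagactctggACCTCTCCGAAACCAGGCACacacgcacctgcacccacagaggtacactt
No named gene, CtIP_KO, chrX:166321552-166321552, minus strand: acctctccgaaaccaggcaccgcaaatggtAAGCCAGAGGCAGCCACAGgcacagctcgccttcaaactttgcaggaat
No named gene, XRCC4_KO, chr5:22940938-22940938, minus strand: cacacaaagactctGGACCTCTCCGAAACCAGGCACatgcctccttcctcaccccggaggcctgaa

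The gene reads carried overlaps of 2 to 8 bp, and the last 3 reads carried 20, 19 and 22 bp. The Il4ra read could be placed on the gene's promoter without a genome. Of its prey, 77 bases matched the Il4ra promoter exactly and stand in capitals in the RefSeq promoter (GRCm38.p6, chr7:125552021-125552320, plus strand, 250 bases before to 50 after the start).
Il4ra promoter: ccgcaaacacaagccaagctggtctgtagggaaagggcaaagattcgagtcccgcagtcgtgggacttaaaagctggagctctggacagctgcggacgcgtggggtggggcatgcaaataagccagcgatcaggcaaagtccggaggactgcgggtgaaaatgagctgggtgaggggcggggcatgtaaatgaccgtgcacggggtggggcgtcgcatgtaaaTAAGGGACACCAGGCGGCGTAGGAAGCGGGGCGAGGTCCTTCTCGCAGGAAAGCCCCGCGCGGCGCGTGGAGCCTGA
Of all 583 preys, 11 matched the promoter of exactly 1 RefSeq gene on their own chromosome over 30 or more bases, each a different gene. Besides Il4ra, Il21r and Pim1, these included Fcer2a, which encodes the low-affinity IgE receptor CD23, with a join 151 bp upstream of its start in XRCC4_KO. They also included Gnai3, which encodes an inhibitory G protein subunit, with a join 111 bp downstream of its start in CtIP_KO.

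The mutant libraries held larger shares of joins to other chromosomes. By distinct listed joins, these were 2.55% of all junctions in Wildtype (241 of 9435, 95% Wilson interval 2.25 to 2.89). The share was 5.24% in CtIP_KO (134 of 2555, interval 4.45 to 6.18), and XRCC4_KO had 5.91% (208 of 3521, interval 5.18 to 6.74). The odds were 2.11 times the Wildtype odds in CtIP_KO (95% interval 1.69 to 2.63, two-sided Fisher's exact test, adjusted p = 1.3e-10) and 2.39 times in XRCC4_KO (1.97 to 2.91, adjusted p = 3.17e-18). The test between CtIP_KO and XRCC4_KO was not passed (exact test, odds ratio 0.882, interval 0.700 to 1.11, adjusted p = 0.284). The deposited summary, which also counts lines not analysed here, gave 2.97%, 3.54%, 5.48% and 6.08% for Wildtype, CtIP_AA, CtIP_KO and XRCC4_KO. The lines not analysed here made up 26 of the 280 Wildtype joins to other chromosomes, 4 of 140 in CtIP_KO and 5 of 214 in XRCC4_KO. Repeats of a listed join, counted once above, numbered 13, 2 and 1 in the same order. The totals of all junctions kept both kinds of line. By the summary counts alone, the odds ratios over Wildtype were 1.90 in CtIP_KO and 2.12 in XRCC4_KO (exact test, adjusted p = 9.31e-09 and 1.06e-14).

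**Figure D1:**
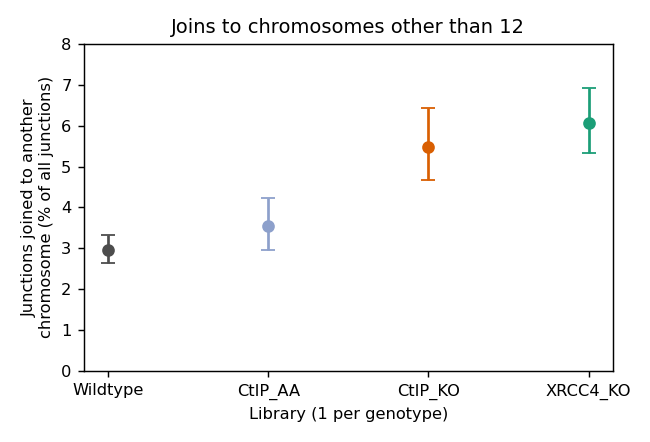
Percent of all junctions joined to a chromosome other than 12 in each library, from the deposited summary; points are the shares and bars the 95% Wilson intervals. The points run from 2.97% in Wildtype to 6.08% in XRCC4_KO, and the CtIP_KO and XRCC4_KO intervals lie above that of Wildtype.

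Among joins outside IgH, 79.0% in Wildtype (241 of 305) and 79.4% in XRCC4_KO (208 of 262) lay on another chromosome, against 88.7% in CtIP_KO (134 of 151). The CtIP_KO share was above that of Wildtype (odds ratio 2.09, interval 1.15 to 3.97, two-sided Fisher's exact test, adjusted p = 0.0226) and of XRCC4_KO (odds ratio 2.04, interval 1.11 to 3.93, adjusted p = 0.0226). With the chromosome 12 joins near IgH left out, neither difference passed the exact test (adjusted p = 0.379 and 0.192). The joins on chromosome 12 outside IgH, the other part of this denominator, numbered 18 of 2555 junctions in CtIP_KO, 85 of 9435 in Wildtype and 62 of 3521 in XRCC4_KO by the summary.

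The joins reached every chromosome from 1 to 19 other than 12, and X. Chromosome 6 took 65 of the 583 joins and chromosome 7 took 61, followed by chromosome 1 with 45 and chromosome 2 with 40. Chromosome X took 12, and 2 joins fell on unplaced sequence of Y. Recurrent sites, described below, held 31 of the chromosome 6 joins and 29 of the chromosome 7 joins. Without them chromosomes 6 and 7 kept 34 and 32 joins, below the 40 left on chromosome 1 and the 37 on chromosome 5. Shares per chromosome passed no two-sided Fisher's exact test between libraries after adjustment over 60 tests. The share of chromosomes called was 0.0% of 20 in each of the 3 pairs, and 1 of the 60 tests had an unadjusted p under 0.05. That test was for chromosome 3, with 11 of 134 CtIP_KO joins and 7 of 241 Wildtype joins (exact test, unadjusted p = 0.0403, adjusted p = 1).

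**Figure D2:**
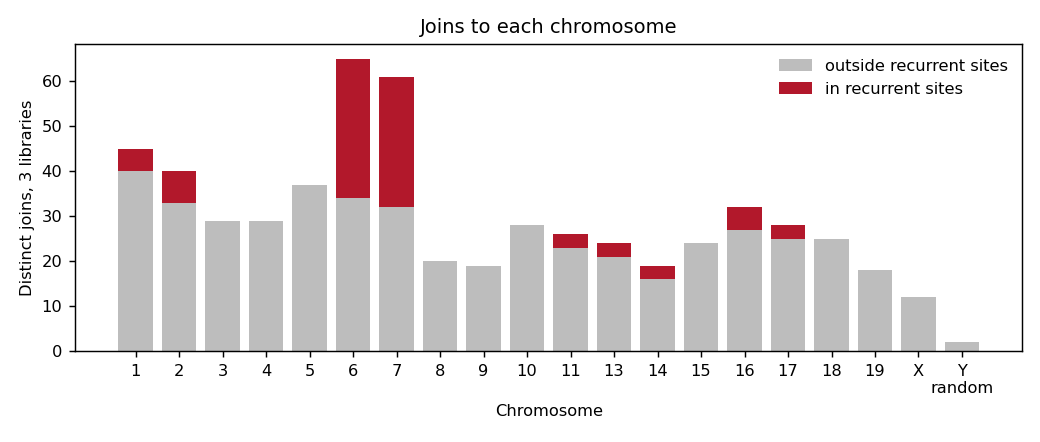
Number of distinct joins on each chromosome over the Wildtype, CtIP_KO and XRCC4_KO libraries, split into joins in recurrent sites (red) and all others (grey). Chromosomes 6 and 7 stand highest with 65 and 61 joins, of which 31 and 29 lie in recurrent sites.

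A recurrent site was a run of 3 or more distinct joins, pooled over libraries, with each join within 100 kb of the next. There were 12 such sites with 89 joins, 15.3% of the 583, and 6 of them with the Wildtype library left out. All 3 libraries had joins at 7 of the sites. The other 494 joins were 434 single joins and 30 pairs. Gene names rest on a sequence match to a promoter for Il4ra, Il21r and Pim1, and on the known mm9 position of the locus for Igk, Gimap, Clec2d, Igl and Cd83.

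The site at Il4ra and Il21r on chromosome 7 held the most joins. These neighbouring genes encode the IL-4 receptor alpha chain, which receives the IL-4 in these cultures, and the IL-21 receptor. The site had 29 joins, 13 in Wildtype (5.39% of its joins to other chromosomes), 6 in CtIP_KO (4.48%) and 10 in XRCC4_KO (4.81%). Within it, 22 joins lay near the Il4ra start, from 3.22 kb upstream to 6.14 kb downstream, with a median of 2.69 kb downstream. By library, the medians downstream of that start were 2.46 kb in Wildtype (9 joins), 3.04 kb in CtIP_KO (6 joins) and 2.88 kb in XRCC4_KO (7 joins), and the ranges of the libraries overlapped. Of these 22 joins, 20 lay downstream of the start and 6 within 2 kb of it.

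The Il21r start lies 51.2 kb from the Il4ra start, computed on mm9 from the matched reads. Near it were 6 joins, 3 in Wildtype and 3 in XRCC4_KO, from 2.07 kb upstream to 1.58 kb downstream. No CtIP_KO join lay there, and 0 of 134 allows a share of up to 2.24% (3 divided by 134, not a Wilson limit). A single Wildtype join lay 63.0 kb upstream of Il4ra and joined the site only through the 100 kb rule. Prey strands were mixed, with 13 plus and 9 minus joins at Il4ra and 3 of each at Il21r. At the whole site 22 of 29 joins had overlap, 6 were blunt and 1 had inserted bases, and the longest overlap was 8 bp.

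**Figure D3:**
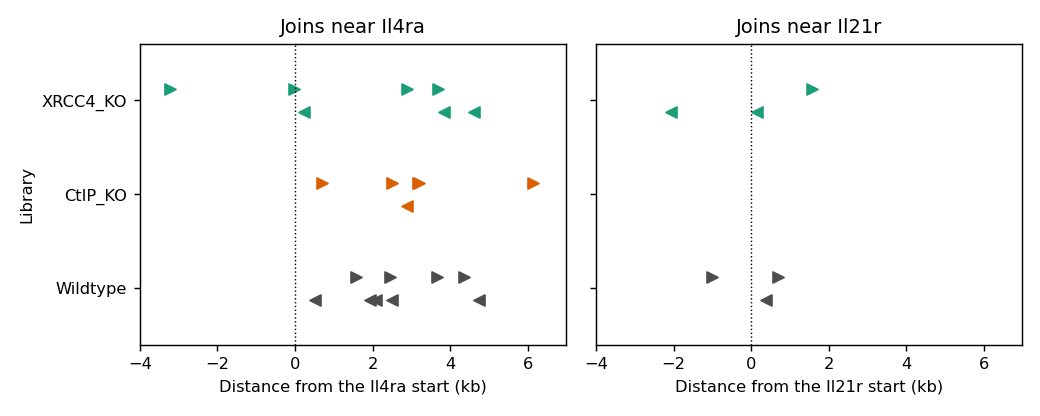
Distance in kb of each join from the Il4ra start (left) and the Il21r start (right) by library; right-pointing marks are plus-strand preys and left-pointing marks minus-strand preys. Of the 22 joins near Il4ra, 20 lie downstream of the start (dotted line), while the 6 joins near Il21r lie on both sides of its start.

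Both light chain loci, which like IgH hold antibody genes, were recurrent sites on the pooled joins. With Wildtype left out, Igk kept 3 joins and Igl kept 2, too few for a site. Their transcription in these cells was not measured. Igk on chromosome 6 held 10 joins, 7 in Wildtype, 1 in CtIP_KO and 2 in XRCC4_KO, within 4.55 kb (mm9 70672008 to 70676557) around the joining segments and the constant exon. Of these preys 9 ran on the plus strand. Their overlaps reached at most 4 bp, in 5 joins, while 2 joins were blunt and 3 had inserted bases. Igl on chromosome 16 held 5 joins, 3 in Wildtype and 1 in each of the other libraries. Of these, 4 lay within 3.00 kb (mm9 19231571 to 19234571) and a CtIP_KO join lay 13.2 kb away, at the promoter of the non-coding RNA Gm35545.

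Sites of fewer joins lay at genes of lymphocytes. Clec2d, which encodes a C-type lectin ligand of natural killer cell receptors, held 4 joins within 3.41 kb on chromosome 6, all in Wildtype, and 2 further joins of the same site lay 49.2 kb away. The site named after the Gimap genes, a family of GTPases of lymphocytes, held 6 joins over 134 kb. Of these, 3 lay within 6.63 kb with 1 in each library. A Wildtype join lay 34.1 kb before them. The last 2 joins lay 91.6 kb beyond them, and whether these lie at a Gimap gene was not checked. Cd83, which encodes a surface protein of activated B cells, held 3 minus-strand joins, 2 in Wildtype and 1 in XRCC4_KO. Pim1, which encodes a serine/threonine kinase and is a known AID target, held 3 joins within 1.35 kb, 2 in Wildtype and 1 in XRCC4_KO. The Wildtype join at mm9 29630005 lay 25 bp upstream of a Pim1 start, and the XRCC4_KO join at 29628655 lay in the promoter of the non-coding RNA Gm26885.

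The remaining sites had no gene name here. On chromosome 2, 7 joins fell within 0.607 kb (mm9 98506881 to 98507488), 4 in CtIP_KO, 2 in Wildtype and 1 in XRCC4_KO. At 6 of the 7 the 20 reference bases around the join were wholly repeat-masked, shown in lower case by the authors' files.
Reference bases at 2 of these joins, plus strand of chr2: aaatatggcgaggaaaactg
The same 20 bases stood at 2 positions of this site and at 3 listed joins on chromosome 12, so the true position of these satellite-like joins is not known. A site on chromosome 1 held 5 joins over 91.1 kb, with 1 or 2 in each library. On chromosome 11, 3 joins lay within 1.16 kb. On chromosome 14, 3 joins lay within 3 bp in repeat-masked sequence, and 2 of them shared 1 position between Wildtype and CtIP_KO. With that position counted once, 2 joins remain, too few for a site. The 2 Wildtype joins lay 3 bp apart on the plus strand, each with 4 inserted bases. Whether they are separate events was not tested.

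**Figure D4:**
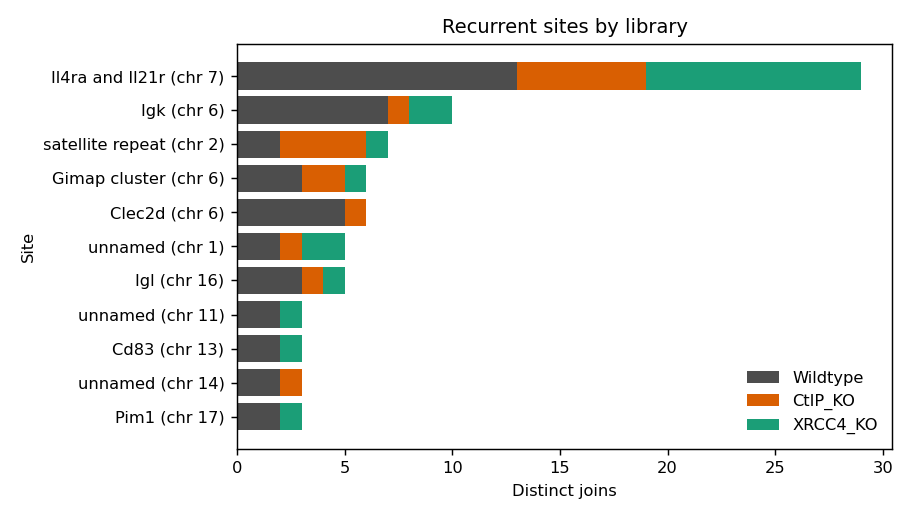
Number of distinct joins at 11 of the 12 recurrent sites, stacked by library. The Il4ra and Il21r site has 29 joins, and no other site has more than 10.

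Joins in recurrent sites made up 19.9% of joins in Wildtype (48 of 241, 95% Wilson interval 15.4 to 25.4), 13.4% in CtIP_KO (18 of 134, interval 8.67 to 20.2) and 11.1% in the XRCC4_KO library (23 of 208, interval 7.48 to 16.0). The sites were found on the pooled joins, and 6 of the 12 reach 3 joins only through Wildtype. Those 6 held 16 of the 48 Wildtype site joins, 3 of the 18 in CtIP_KO and 4 of the 23 in XRCC4_KO, so the shares are given as a description and no difference between libraries is read from them. In the 6 sites that reach 3 joins without Wildtype lay 13.3% of the Wildtype joins (32 of 241), 11.2% of the CtIP_KO joins (15 of 134) and 9.13% of the XRCC4_KO joins (19 of 208), and their Wilson intervals overlapped.

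A library that took no part in finding the sites had joins at them too. The blunt joins of CtIP_AA numbered 15 on other chromosomes, and 5 of these lay in or within 100 kb of a recurrent site (33.3%, 95% Wilson interval 15.2 to 58.3). Of the 5, 2 lay at Igk, at mm9 70673083 and 70674096, and 1 lay in the Gimap site. A further join lay 1.98 kb downstream of the Il4ra start and another 3.36 kb downstream of the Il21r start. Blunt joins of the libraries that made the sites lay there in 10 of 25 cases in Wildtype, 7 of 21 in CtIP_KO and 1 of 9 in XRCC4_KO. Among all 583 joins the share in sites was 15.3%, so blunt joins are not to be set against all joins. The preys of large insertions met the sites in 1 of 393 cases in Wildtype, 0 of 241 in CtIP_AA, which allows a share of up to 1.24%, and 1 of 312 in CtIP_KO.

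Among the pairs of joins, just under the number that makes a site, were loci with a known name. A CtIP_KO join and an XRCC4_KO join lay 2.27 kb apart at Bcl6, which encodes a transcriptional repressor of germinal centre B cells and is named here from its mm9 position. At Dhrs3, a retinal reductase gene, an XRCC4_KO join matched the promoter, and a Wildtype join lay 1.18 kb away. Of the 30 pairs, 22 held no join with an overlap of 8 or more bp.

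Prey strands were near balance. The plus strand took 52.7% of joins in Wildtype (127 of 241), 56.7% in CtIP_KO (76 of 134) and 48.6% in XRCC4_KO (101 of 208). No pair of libraries passed the two-sided Fisher's exact test, with adjusted p of 0.452 to 0.517. The odds ratios were 1.18 for CtIP_KO over Wildtype (interval 0.752 to 1.84), 0.848 for XRCC4_KO over Wildtype (0.575 to 1.25) and 1.39 for CtIP_KO over XRCC4_KO (0.877 to 2.20). In recurrent sites 50 of 89 joins were on the plus strand, and elsewhere 254 of 494.

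Most of the distinct joins described here carried overlap between bait and prey, and none had more than 29 inserted bases. Large insertions are listed apart and were not added to these shares. Their distinct preys on other chromosomes numbered 393 in Wildtype, 241 in CtIP_AA and 312 in CtIP_KO. Those of XRCC4_KO were not counted here, so this class cannot be compared for that library. Blunt joins, with neither overlap nor inserted bases, made up 15.7% in CtIP_KO (21 of 134), 9.54% in Wildtype (23 of 241) and 4.33% in XRCC4_KO (9 of 208). The CtIP_KO share was above that of XRCC4_KO (odds ratio 4.09, interval 1.73 to 10.5, two-sided Fisher's exact test, adjusted p = 0.00553). Neither mutant library passed this exact test against Wildtype in blunt joins (adjusted p = 0.121 for CtIP_KO and 0.0944 for XRCC4_KO). Joins with overlap made up 80.3% in XRCC4_KO (167 of 208) against 68.5% in Wildtype (165 of 241), a difference that passed the exact test (odds ratio 1.87, interval 1.19 to 2.98, adjusted p = 0.0226). CtIP_KO had 71.6% (96 of 134) and passed against neither. Both calls of the exact test were lost with the recurrent sites left out (adjusted p = 0.0936 for each), while the odds ratios were then 3.03 for blunt joins and 1.88 for overlap. The overlap call was also lost with only the reads whose bait alignment starts at base 1 (exact test, odds ratio 1.84, adjusted p = 0.106). Such reads were 152 of 241 in Wildtype, 122 of 134 in CtIP_KO and 186 of 208 in XRCC4_KO. Inserted bases were seen in 22.0% of Wildtype joins (53 of 241), 12.7% in CtIP_KO (17 of 134) and 15.4% in XRCC4_KO (32 of 208), and no pair passed the test.

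Overlaps of 4 or more bp made up a smaller share in CtIP_KO. Among joins with 1 to 15 bp of overlap, these were 40.4% in CtIP_KO (36 of 89), 59.2% in Wildtype (93 of 157) and 62.1% in XRCC4_KO (100 of 161). CtIP_KO lay below Wildtype (odds ratio 0.469, interval 0.266 to 0.821, two-sided Fisher's exact test, adjusted p = 0.00798) and below XRCC4_KO (odds ratio 0.416, interval 0.235 to 0.728, adjusted p = 0.0042). With a limit of 3 or more bp the call against Wildtype was lost (exact test, odds ratio 0.558, adjusted p = 0.055). Wildtype and XRCC4_KO did not pass this exact test (odds ratio 1.13, interval 0.701 to 1.81, adjusted p = 0.647). Within the range, overlaps of 4 to 7 bp numbered 16 in CtIP_KO, 36 in Wildtype and 47 in XRCC4_KO. Those of 1 to 3 bp numbered 53, 64 and 61 in the same order. The rest had 8 or more bp, and this difference was not tested without them. The mean overlap was 5.48 ± 5.11 bp in CtIP_KO (SD, over 96 joins, median 3), 6.35 ± 4.71 bp in Wildtype (165 joins, median 5) and 6.25 ± 4.44 bp in XRCC4_KO (167 joins, median 5).

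Long overlap set joins to other chromosomes apart from joins within IgH in each library. By the deposited summary, 8 or more bp of overlap were present in 23.9% of Wildtype joins to other chromosomes (67 of 280) against 0.871% of IgH joins (79 of 9070). CtIP_KO had 21.4% against 1.17% and XRCC4_KO 28.0% against 2.40%. The odds ratios were 35.7 in Wildtype (interval 24.7 to 51.6), 15.8 in XRCC4_KO (10.7 to 23.3) and 23.0 in CtIP_KO (12.8 to 41.5), with the largest adjusted p of these 3 tests at 2.56e-23 (two-sided Fisher's exact test within a library). CtIP_AA had 30.7% on other chromosomes (35 of 114) and 0.973% in IgH (30 of 3083). Joins on chromosome 12 outside IgH, which also lie at non-switch sequence, had 2.35% in Wildtype (2 of 85), 4.35% in CtIP_AA (1 of 23), 11.1% in CtIP_KO (2 of 18) and 9.68% in XRCC4_KO (6 of 62). The CtIP_KO interval there, 3.10 to 32.8%, overlapped that on other chromosomes, 15.4 to 28.9%.

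**Figure D5:**
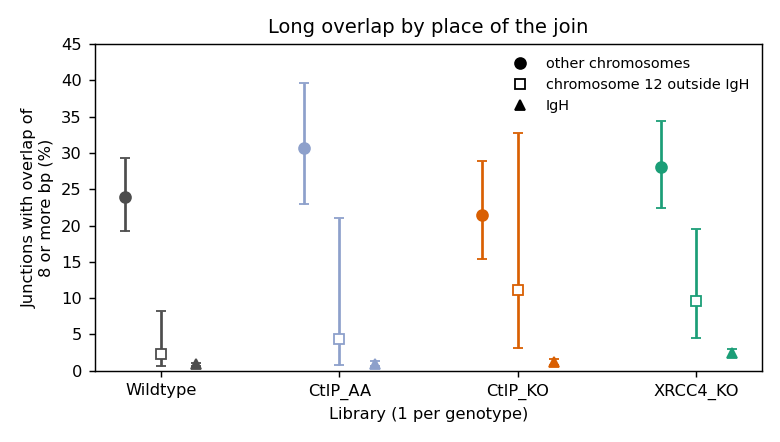
Percent of junctions with 8 or more bp of overlap by library for joins to other chromosomes (circles), to chromosome 12 outside IgH (open squares) and within IgH (triangles), with 95% Wilson intervals. Circles lie between 21.4% and 30.7%, and triangles between 0.871% and 2.40%.

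Blunt joins were rarer on other chromosomes than in IgH in each of these 3 libraries. They made up 9.64% against 22.7% in Wildtype (odds ratio 0.363, adjusted p = 9.51e-08), 15.0% against 24.5% in CtIP_KO (odds ratio 0.543, adjusted p = 0.0127) and 4.67% against 13.1% in XRCC4_KO (odds ratio 0.325, adjusted p = 0.000182), by two-sided Fisher's exact tests. The summary holds no insertions above 30 bp. Within that limit, inserted bases were rarer on other chromosomes in CtIP_KO, with 12.9% against 26.9% (exact test, odds ratio 0.402, adjusted p = 0.000206). In Wildtype and XRCC4_KO inserted bases did not pass this exact test (adjusted p = 0.379 and 0.203).

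The long overlaps lay almost wholly outside the recurrent sites. Of the distinct joins, 151 had 8 or more bp, 65 in Wildtype, 27 in CtIP_KO and 59 in XRCC4_KO. In recurrent sites these were 3 of 89 joins (3.37%), against 148 of 494 elsewhere (29.96%). Outside the sites they were 63 of 193 joins in Wildtype, 27 of 116 in CtIP_KO and 58 of 185 in XRCC4_KO, and inside them 2 of 48, 0 of 18 (which allows up to 16.7%) and 1 of 23. Mean overlap was 2.47 ± 1.81 bp in the sites (SD, 51 joins) and 6.60 ± 4.76 bp elsewhere (377 joins). Blunt joins ran the other way, with 17 of 89 in the sites and 36 of 494 elsewhere.

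The long overlaps used few stretches of the bait. Of the 151 joins, 98 (64.9%) held at least 1 of 3 bait stretches of 7 bases in their overlap, the most frequent ones, which lie in the last 3 reads shown above. The stretch cagccac was in 45 overlaps, accaggc in 33 and agaggca in 31. In 10 joins the overlap reached into the 21 bases of the nested PCR primer, as in the XRCC4_KO read with 22 bp. With joins of 8 or more bp taken out of the summary counts, the odds of a join to another chromosome stayed above Wildtype in CtIP_KO (odds ratio 1.965, adjusted p = 8.17e-08) and XRCC4_KO (odds ratio 2.04, adjusted p = 4.16e-10, two-sided Fisher's exact test). All 12 recurrent sites kept 3 or more joins without them. The part of repeats or of amplification in the long overlaps was not tested.

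The 20 reference bases around each join were searched for repeats. The 10 of them on the prey side equalled the first 10 prey bases in 515 of 583 joins (88.3%). All 20 bases were repeat-masked for 221 of 583 joins (37.9%). This held for 19 of 89 joins in recurrent sites (21.3%) and for 202 of 494 elsewhere (40.9%). The masked share of the whole genome was not measured, so no background stands beside these shares. By library the shares were 41.9% in Wildtype, 32.8% in CtIP_KO and 36.5% in XRCC4_KO. Among joins with 8 or more bp of overlap 38.4% were masked, against 37.7% of the others. In 9 joins, of which Wildtype had 4, XRCC4_KO 3 and CtIP_KO 2, the prey held 2 telomere repeats in a row, and none of them had 8 or more bp of overlap.

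AGCT, a core motif of AID action in switch regions, was looked for in the first 50 prey bases of the joins whose prey is that long, on both strands. It was present in 120 of 432 such preys (27.8%), in 17 of 76 in recurrent sites (22.4%) and in 103 of 356 elsewhere (28.9%). The prey bases include any overlap with the bait. With 8 or more bp of overlap, 48 of 133 preys held AGCT (36.1%), against 72 of 299 others (24.1%). Since such overlaps lay almost wholly outside the sites, the shares inside and outside them are not like for like. GAGCT, which holds AGCT, was present in 11.8% of the 432, and GGGCT in 10.6%. In recurrent sites these were 11.8% and 15.8%. For IgH, only blunt preys of the same libraries were searched, in a stretch that includes the switch regions. They held AGCT in 71.5% in Wildtype (1259 of 1761), 74.6% in CtIP_KO and 70.1% in XRCC4_KO. The 432 preys came from joins of every kind, so these shares are not like for like either. The shares on other chromosomes and in IgH were not tested against each other.

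Some positions recurred exactly. In 5 cases a join had the same chromosome, position and strand in 2 libraries, so the 583 joins held 578 positions. Of the 5, 2 on chromosome 18 had the same overlap of 14 bp in both libraries, and 1 on chromosome 17 was blunt in both. Whether these are separate events was not tested.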

How the data were processed

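Junctions of Sμ were read by linear amplification, nested PCR and MiSeq, per the labels' protocols, with Bowtie2 as aligner and mm9 as build per the submitters' processing notes. Calling and deduplication of junctions are not described in those sources. The deposited tables give positions, strands and alignments (no expression unit), and the deposited summaries give junction counts by place and overlap, used as deposited. The depth was 9435, 3220, 2555 and 3521 junctions for Wildtype, CtIP_AA, CtIP_KO and XRCC4_KO. Emptied lines were left out. The labels give the strain as BL6 and the background as 129Sv.

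Overlap is the bases shared by bait and prey alignments, negative values of prey start minus bait end minus 1. Shares carry 95% Wilson intervals, and pairs of libraries were compared with two-sided Fisher's exact tests (scipy 1.17.1) with Benjamini-Hochberg adjustment within each kind of result and a threshold of 0.05. For counts of 0, the share said to be allowed is 3 divided by the number of joins, which is lower than the upper Wilson limit. Clustering and tests were checked on simulated data with evenly drawn positions and a planted site. The simulation held no repeats and no near-identical reads, so it cannot speak for sites in repeats. Every recurrent site was counted, and the 10 with the most joins were to be described in full. The other 2 are described too, and 1 site on chromosome 6 is counted but not reported here. The Bcl6 and Dhrs3 pairs, and single joins with a promoter match, were named after their values were seen. The joins, the 8 bp limit and the lists were chosen with earlier results of these data known.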

Additional observations from a re-analysis of the deposited data

How the results depend on the processing

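Of 191 alternative values, 167 kept their direction and side of the threshold or stayed within their limits. The larger share of joins to other chromosomes in CtIP_KO and XRCC4_KO held in each alternative run for it. With chromosome 12 joins near IgH left out, odds ratios for the share on another chromosome were 1.496, 0.795 and 1.88 for CtIP_KO over Wildtype, XRCC4_KO over Wildtype and CtIP_KO over XRCC4_KO, the second reversed. With every listed line, inserted bases in CtIP_KO (0.484) and blunt joins in XRCC4_KO (0.395) passed against Wildtype, and so did the former (0.440) without overlaps of 8 or more bp. Without recurrent sites, overlap in XRCC4_KO over Wildtype (1.88) and blunt joins in CtIP_KO over XRCC4_KO (3.03) no longer passed, nor did the former with baits at the most frequent start (1.84). For 4 or more bp, XRCC4_KO over Wildtype reversed without recurrent sites (0.808), without chromosome 6 (0.95) and with 6 or more bp (0.932), and CtIP_KO over Wildtype no longer passed with 3 or more bp (0.558). The odds ratio of the share in recurrent sites, XRCC4_KO over Wildtype, was 0.501, from which nothing is read because 6 of the 12 sites rest on Wildtype joins. It no longer passed within 1 Mb (0.772), with baits at the most frequent start (0.519) or in sites found without Wildtype (0.657). The causes were not tested. Sites numbered 31 within 1 Mb, 42 with 2 or more joins, and 6 to 11 with 1 library left out, the 6 being without Wildtype. Those 6 included Il4ra and Il21r, Igk, Gimap, the chromosome 2 repeat and the unnamed chromosome 1 site. Mean overlap was 7.17 bp in Wildtype without recurrent sites, and 3.10, 2.59 and 3.49 bp in Wildtype, CtIP_KO and XRCC4_KO without overlaps of 8 or more bp. Inserted bases in Wildtype passed against IgH with distinct listed joins (0.727). Alternatives on overlaps of 8 or more bp, the summary counts, the repeat site, the sites found without Wildtype and the distinct-join structure were chosen after seeing the data. No paired analysis was possible because each genotype had 1 library. With 134 to 241 joins a library, sites of 3 joins rest on 1 or 2 joins from each library that has any.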
